A study of Mus musculus with 2 samples.

Results

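Genes of lysosomal protein breakdown and of bacterial wall breakdown were followed through the single cells of mouse skin, namely the cathepsin genes Ctsb, Ctsc, Ctsd, Ctsh, Ctsl, Ctss and Ctsz, the legumain gene Lgmn and the lysozyme genes Lyz1 and Lyz2. They were taken by symbol as a fixed list of 10 among the 32285 genes of the count matrix, and all 10 were detected. The cells came from shaved dorsal skin of male wild-type (WT) mice, digested with collagenase-A and Dispase-II and sorted for the macrophage protein F4/80 and for high MHC class II. There was 1 library from 2 pooled mice aged 9 weeks and 1 from 2 pooled mice aged 108 weeks, so that animals within a library could not be separated. Both libraries share 1 matrix, where barcodes end in 1 or 2, and nothing in the labels or the study's methods says which ending belongs to which age. Ages were therefore pooled, and values are given for library 1 and library 2, of unknown age. With 1 library per age no test was possible and no p-value is given. A difference is called where the level was at least 2-fold apart in the pooled cells and 2-fold apart the same way in each library.

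Cathepsins are proteases of the endosome and lysosome, made as inactive precursors and switched on in acidic compartments. Most of those listed are cysteine proteases, whereas cathepsin D is an aspartic protease and legumain cuts after asparagine and processes several cathepsins. In antigen-presenting cells they degrade swallowed protein and the invariant chain of MHC class II, and in stromal cells some act on extracellular matrix. Lysozymes cleave the peptidoglycan of bacterial cell walls. Mice carry a pair of neighbouring lysozyme genes, of which Lyz2 is the one usually linked to macrophages and Lyz1 to Paneth cells of the gut.

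Of 5257 barcodes, 3797 cells passed the filter, 2396 in library 1 and 1401 in library 2, with a median of 10870 UMIs (unique molecular identifiers, each standing for 1 captured RNA molecule). A single barcode sequence occurred in both libraries. The cells formed 27 clusters, drawn without the 10 genes or the 70 other lysosomal genes described below, and marker genes named 909 cells in 4 clusters macrophage-like, 512 in 5 clusters dendritic-like and 827 in 5 clusters fibroblast-like. Levels are given as UMIs of a gene per 1000000 UMIs of the group (CPM). The macrophage markers summed to 15004 CPM in the macrophage-like cells, 1606 in the dendritic-like and 99.7 in the fibroblast-like cells. All 10 of them, among them C1qa, Pf4 and Mrc1, stood above 20 CPM in the macrophage-like cells. In the dendritic-like cells 7 did, and in the fibroblast-like cells none. All 7 markers of type 2 dendritic cells passed that level in the dendritic-like cells, and 2 of them in the macrophage-like cells. They summed to 2978 CPM in dendritic-like, 1574 in macrophage-like and 22.5 in fibroblast-like cells. They thus set macrophage-like and dendritic-like cells less far apart than the macrophage markers did. All 7 fibroblast markers passed 20 CPM in the fibroblast-like cells, and 4 did in the macrophage-like and in the dendritic-like cells. Fibroblast-like cells were present although the sort was meant to keep macrophages only. Another 787 cells in 4 clusters stayed unnamed. Of these clusters, 3 held phagocytes, 1 led by Ly6c2 and Spp1 (cluster 2), 1 by Retnla and Lyz1 (cluster 3) and 1 by Ly6c2 and Ms4a4c (cluster 20). Median depth was 9197 UMIs in macrophage-like, 14347.5 in dendritic-like and 13097 in fibroblast-like cells.

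Brackets after a level hold exact 95% Poisson intervals, and brackets after a log2 ratio hold exact 95% conditional binomial intervals. Both cover counting error only. Libraries count the 3′ ends of transcripts, so that a level is not divided by gene length, and each gene is compared with itself across groups. The 10 genes together took 1.75% of the UMIs of macrophage-like cells, 0.852% of dendritic-like and 0.230% of fibroblast-like cells. In library 1 these shares were 1.68%, 0.856% and 0.20%, and in library 2 they were 1.94%, 0.842% and 0.265%. Lyz2 alone made up 36.3% of their UMIs in macrophage-like and 59.2% in dendritic-like cells, whereas Ctsl made up 37.7% in fibroblast-like cells.

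**Figure D1:**
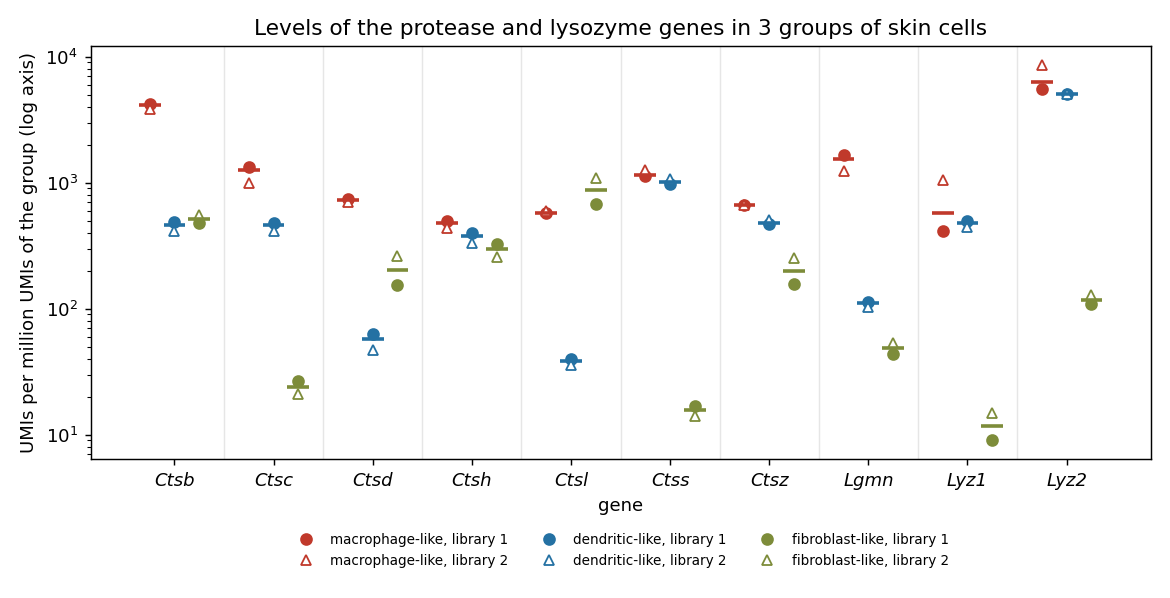
Level of each of the 10 genes (CPM, log axis) in macrophage-like, dendritic-like and fibroblast-like cells, with library 1 as filled circles, library 2 as open triangles and the pooled level as a bar. Ctsc, Ctss, Lyz1 and Lyz2 lie far lower in fibroblast-like cells than in both phagocyte groups, Ctsb, Ctsd and Lgmn stand out in macrophage-like cells, and Ctsl is lowest in dendritic-like cells.

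Against fibroblast-like cells, macrophage-like cells were at least 2-fold higher for 8 of the 10 genes and at least 2-fold lower for none. Of the 8994 genes tested, 13.5% were called higher and 20.9% lower. The median log2 ratio of the 10 genes was 4.0, and that of all genes tested was -0.17. In this comparison only Ctsh and Ctsl were not called.

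Cathepsin B, a cysteine protease with both endopeptidase and carboxypeptidase activity, had its highest level in macrophage-like cells. Ctsb (ENSMUSG00000021939, chromosome 14, 63122462 to 63145923) stood at 4238 CPM in library 1 and 3836 in library 2 of the macrophage-like cells. The dendritic-like cells held 486 and 411, and the fibroblast-like cells 481 and 558. Dendritic-like and fibroblast-like libraries overlapped, and both macrophage-like values lay well above them. The pooled level was 8.00-fold that of fibroblast-like cells (log2 ratio 3.0, 2.96 to 3.04) and 8.93-fold that of dendritic-like cells (3.16, 3.11 to 3.21).

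Legumain was also highest in macrophage-like cells. Lgmn (ENSMUSG00000021190, chromosome 12, 102394084 to 102439813) had 1655 and 1237 CPM in libraries 1 and 2 of the macrophage-like cells, 113 and 103 in the dendritic-like cells, and 43.9 and 53.7 in the fibroblast-like cells. No values of different groups overlapped. The macrophage-like level was 32.0-fold the fibroblast-like level (log2 ratio 5.0, 4.89 to 5.12) and 14.1-fold the dendritic-like level (3.82, 3.71 to 3.92). The dendritic-like level was 2.27-fold the fibroblast-like level, with a log2 ratio of 1.37 in library 1 and 0.93 in library 2, which missed the call.

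Cathepsin D, the main aspartic protease of lysosomes, was lowest in dendritic-like cells. Ctsd (ENSMUSG00000007891, chromosome 7, 142375911 to 142388038) stood at 747 and 698 CPM in libraries 1 and 2 of the macrophage-like cells, 62.6 and 46.6 in the dendritic-like cells, and 155 and 262 in the fibroblast-like cells. The macrophage-like level was 12.7-fold the dendritic-like level (log2 ratio 3.67, 3.53 to 3.81) and 3.59-fold the fibroblast-like level (1.85, 1.78 to 1.91). Dendritic-like cells were the lowest of all 9 named groups for Ctsd, and skeletal muscle-like cells came next with 101 CPM.

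Cathepsin L, a cysteine protease that processes the invariant chain in the thymus, was the exception among the proteases. Ctsl (ENSMUSG00000021477, chromosome 13, 64359337 to 64370890) had 677 and 1090.5 CPM in libraries 1 and 2 of the fibroblast-like cells, 570 and 596 in the macrophage-like cells, and 40.0 and 35.5 in the dendritic-like cells. The fibroblast-like level was the highest of all 9 named groups. It was 1.51-fold the macrophage-like level (log2 ratio of macrophage-like against fibroblast-like cells -0.59, -0.64 to -0.55), which was not called. The dendritic-like level was 14.9-fold below the macrophage-like and 22.5-fold below the fibroblast-like level (log2 ratio -4.49, -4.66 to -4.32).

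Of the remaining proteases, Ctss, Ctsc and Ctsz were called higher in both phagocyte groups than in fibroblast-like cells, and Ctsh was not. Ctss (ENSMUSG00000038642, chromosome 3, 95526786 to 95556403) encodes cathepsin S, which trims the invariant chain in antigen-presenting cells and stays active at neutral pH. It stood at 1127 and 1253 CPM in libraries 1 and 2 of the macrophage-like cells, 971 and 1077 in the dendritic-like cells, and 16.8 and 14.2 in the fibroblast-like cells. The phagocyte groups differed by 1.16-fold (log2 ratio 0.21, 0.17 to 0.25), and both lay far above fibroblast-like cells, 74.4-fold for macrophage-like and 64.4-fold for dendritic-like cells.

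Ctsc (ENSMUSG00000030560, chromosome 7, 88278085 to 88310888) encodes cathepsin C, a dipeptidyl peptidase that activates granule serine proteases. It had 1338.5 and 993 CPM in libraries 1 and 2 of the macrophage-like cells, 478 and 413 in the dendritic-like cells, and 26.5 and 20.9 in the fibroblast-like cells. The groups did not overlap. Macrophage-like cells were 52.4-fold above fibroblast-like cells (log2 ratio 5.71, 5.55 to 5.88) and 2.73-fold above dendritic-like cells (1.45, 1.39 to 1.504), a call that was lost with a stricter cell filter (0.95) and with cells gated singly by markers.

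Ctsz (ENSMUSG00000016256, chromosome 2, 174427493 to 174439039) encodes cathepsin Z, a carboxypeptidase. Its level was 662 and 664 CPM in libraries 1 and 2 of the macrophage-like cells, 470 and 503 in the dendritic-like cells, and 156 and 251 in the fibroblast-like cells. Macrophage-like cells were 3.31-fold and dendritic-like cells 2.39-fold above fibroblast-like cells, and both were called, the second with a log2 ratio of 1.00 in library 2, at the threshold itself. Ctsh (ENSMUSG00000032359, chromosome 9, 90054152 to 90076089) encodes cathepsin H, an aminopeptidase, and was called in none of the 3 comparisons. It had 497 and 437 CPM in libraries 1 and 2 of the macrophage-like cells, 399.9 and 333 in the dendritic-like cells, and 327 and 259 in the fibroblast-like cells. Its pooled log2 ratios were 0.71 for macrophage-like against fibroblast-like cells, 0.34 for macrophage-like against dendritic-like cells and 0.36 for dendritic-like against fibroblast-like cells.

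The 2 lysozyme genes lie next to each other on the minus strand of chromosome 10, Lyz2 (ENSMUSG00000069516) from 117277331 to 117282321 and Lyz1 (ENSMUSG00000069515) from 117287797 to 117292868 (GRCm38, GENCODE vM21, as for all positions given here). Because the genes are near copies, the 250 bases before each transcription start in RefSeq (GRCm38.p6) are shown, with capitals for bases that have no identical partner in a global alignment of the pair, and 204 of 250 bases (81.6%) are identical. In the 100 bases nearest the start 92 match, and in the further 150 bases 112 match (74.7%).
Lyz1, chr10:117292869-117293118, minus strand: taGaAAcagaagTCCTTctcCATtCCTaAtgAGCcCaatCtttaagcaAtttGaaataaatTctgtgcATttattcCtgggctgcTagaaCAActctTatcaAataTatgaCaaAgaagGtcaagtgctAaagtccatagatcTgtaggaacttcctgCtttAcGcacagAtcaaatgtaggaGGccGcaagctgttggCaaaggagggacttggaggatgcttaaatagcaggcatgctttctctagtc
Lyz2, chr10:117282273-117282522, minus strand: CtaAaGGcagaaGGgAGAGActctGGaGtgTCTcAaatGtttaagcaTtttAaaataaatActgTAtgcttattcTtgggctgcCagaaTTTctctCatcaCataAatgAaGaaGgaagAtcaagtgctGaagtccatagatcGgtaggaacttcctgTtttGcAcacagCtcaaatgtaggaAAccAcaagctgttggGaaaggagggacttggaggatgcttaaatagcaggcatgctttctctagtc

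Sequenced inserts were 91 bases long, and 42 of the 1173 stretches of that length in the Lyz1 transcript (3.58%) also occur in the Lyz2 transcript. In the last 500 bases, where 3′ libraries read, it was 14 of 410 (3.41%). Reads from most of each transcript can therefore be told apart, and the counts of both genes are kept separate below.

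Lyz2 stood at 5558 and 8629 CPM in libraries 1 and 2 of the macrophage-like cells, 5040.4 and 5058 in the dendritic-like cells, and 108 and 128 in the fibroblast-like cells. Both phagocyte groups were far above fibroblast-like cells, by 53.9-fold and 42.9-fold, and differed from each other by 1.26-fold (log2 ratio 0.33, 0.31 to 0.35). Lyz1 had 412 and 1048 CPM in libraries 1 and 2 of the macrophage-like cells, 499 and 441 in the dendritic-like cells, and 9.02 and 14.97 in the fibroblast-like cells. It was 48.6-fold higher in macrophage-like and 40.8-fold higher in dendritic-like than in fibroblast-like cells. Between the phagocyte groups the Lyz1 libraries went opposite ways, with a log2 ratio of -0.28 in library 1 and 1.25 in library 2 (0.25 pooled), and the groups overlapped.

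Against dendritic-like cells, macrophage-like cells were thus at least 2-fold higher for 5 of the 10 genes, Ctsb, Ctsc, Ctsd, Ctsl and Lgmn, and at least 2-fold lower for none, where 11.9% of the 6444 genes tested were called higher and 5.32% lower. The median log2 ratio was 0.96 over the 10 genes and 0.13 over all genes tested. Dendritic-like cells were higher than fibroblast-like cells for 5 of the 10, Ctsc, Ctss, Ctsz, Lyz1 and Lyz2, and lower for 2, Ctsd and Ctsl. There the background was 10.9% of 8837 genes called higher and 25.0% called lower, with a median log2 ratio of -0.32 over all genes and 1.22 over the 10. The comparisons share groups and are not independent of each other.

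**Figure D2:**
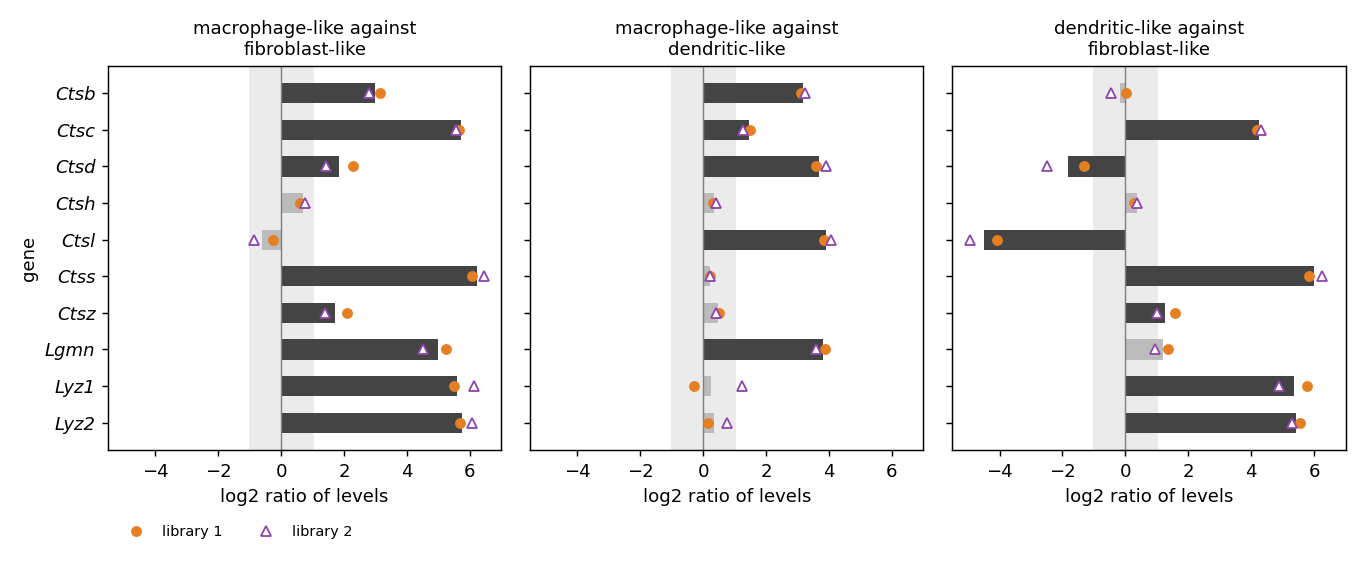
Log2 ratio of levels for each gene in the 3 comparisons, with bars for the pooled cells (dark where called, light where not), circles for library 1 and triangles for library 2, and a grey band for less than 2-fold. The 8 dark bars of macrophage-like against fibroblast-like cells run from 1.72 for Ctsz to 6.22 for Ctss, and the library points of Lyz1 lie on both sides of 0 in macrophage-like against dendritic-like cells.

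Cells with at least 1 UMI were counted at an equal depth of 2000 UMIs drawn from each cell, without 33 macrophage-like, 10 dendritic-like, 47 fibroblast-like and 4 keratinocyte-like cells that were shallower. Ctsb was then found in 99.1% of 876 macrophage-like cells, 52.6% of 502 dendritic-like cells and 63.2% of 780 fibroblast-like cells, against 99.9%, 91.8% and 93.7% without thinning. Lgmn was found in 87.8%, 12.5% and 10.1% of them, and unthinned in 98.8%, 44.9% and 38.2%. Ctsd was found in 58.3%, 8.57% and 34.7%, and unthinned in 87.3%, 32.2% and 81.0%. Dendritic-like cells with a detected Ctsd or Lgmn UMI were thus a minority at equal depth. At such low levels a cell with the transcript can have no UMI drawn, so the shares do not show that the other cells lacked it.

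Lyz2 was found in 99.3% of macrophage-like, 91.4% of dendritic-like and 6.41% of fibroblast-like cells after thinning, and in 99.6%, 96.1% and 30.6% before. Lyz1 was found in 20.8%, 31.3% and 1.15%, and in 33.2%, 53.9% and 6.05% unthinned. The order of the Lyz1 shares in the phagocyte groups goes against that of the pooled levels, and no order is read from it. Keratinocyte-like cells, which should lack myeloid lysozyme, had a thinned share of 9.59% (3.94 to 18.8, exact Clopper-Pearson, 73 cells) for Lyz2, 1.37% for Lyz1 and 6.85% for Ctss (median depth 20204 UMIs). The shares of fibroblast-like cells with Lyz2 (6.41%), Lyz1 (1.15%) and Ctss (1.79%) lay below these values. The keratinocyte-like shares rest on few cells, with intervals of 0.0347 to 7.40 for Lyz1 and 2.26 to 15.3 for Ctss. With thinning to 1000 UMIs the order of Ctss reversed, at 0.0% of keratinocyte-like and 0.846% of fibroblast-like cells. The orders of Lyz2 and Lyz1 did not. The comparison therefore cannot decide whether the fibroblast-like shares are background, and they are not read as expression. Pooled levels did not follow the shares of the main thinning. Lyz2 stood at 118 CPM in fibroblast-like and 48.0 in keratinocyte-like cells, Ctss at 15.6 and 6.97, and Lyz1 at 11.8 and 5.13. The folds of Lyz2, Ctss and Lyz1 over fibroblast-like cells divide by these low levels, whose source was not tested.

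Low levels can also be set against the macrophage markers. In fibroblast-like cells, 9 of the 10 macrophage markers stood at 0.359% to 1.34% of their macrophage-like level, and Mertk at 32.9%. Ctss stood at 1.34%, Lyz2 at 1.86%, Ctsc at 1.91%, Lyz1 at 2.06% and Lgmn at 3.13%. The other 5 genes were far above that range, with Ctsb at 12.5%, Ctsd at 27.8%, Ctsz at 30.3%, Ctsh at 61.3% and Ctsl at 151%. In dendritic-like cells the macrophage markers had a median of 2.29% of their macrophage-like level, and the 10 genes ranged from 6.71% for Ctsl to 86.6% for Ctss. In turn, the fibroblast markers summed to 82629 CPM in fibroblast-like cells and to 594 and 117 in libraries 1 and 2 of the macrophage-like cells, with all 7 detected, and their part in the Ctsl level there was not tested.

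Across the 9 named groups, macrophage-like cells had the highest pooled level of 9 of the 10 genes, all but Ctsl. Mast-like cells, a group of 32 cells with a median of 3536 UMIs, came second for Ctsb with 1449 CPM (1942 and 865 in libraries 1 and 2), for Ctsd with 570 and for Lgmn with 698. Few of them carried the Ctsb and Lgmn UMIs after thinning, when 18.2% of 22 mast-like cells had Ctsb and 13.6% had Lgmn. Unthinned, 37.5% and 18.8% of all 32 did. Ctsd was more widespread, with a UMI in 53.1% of all 32 unthinned, and after thinning its share was also above those of Ctsb and Lgmn. The macrophage markers in these mast-like cells had a median of 9.28% of their macrophage-like level, from 4.41% for Pf4 to 81.1% for Fcgr1, and their part in those levels was not tested. For Lgmn the libraries of mast-like cells, at 1191 and 114 CPM, spanned the endothelial-like values of 254 and 162. Of the 8 steps between neighbours in the order of the groups, the ranges of the libraries overlapped in 2 for Ctsl, in 4 each for Ctsb, Ctsc, Ctsd, Ctsh and Ctss, in 5 each for Ctsz, Lgmn and Lyz2, and in 6 for Lyz1. The first and second groups in the order overlapped for Ctsd and Lyz1 only. Keratinocyte-like, skeletal muscle-like or T or NK-like cells held the lowest level of all genes but Ctsd.

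**Figure D3:**
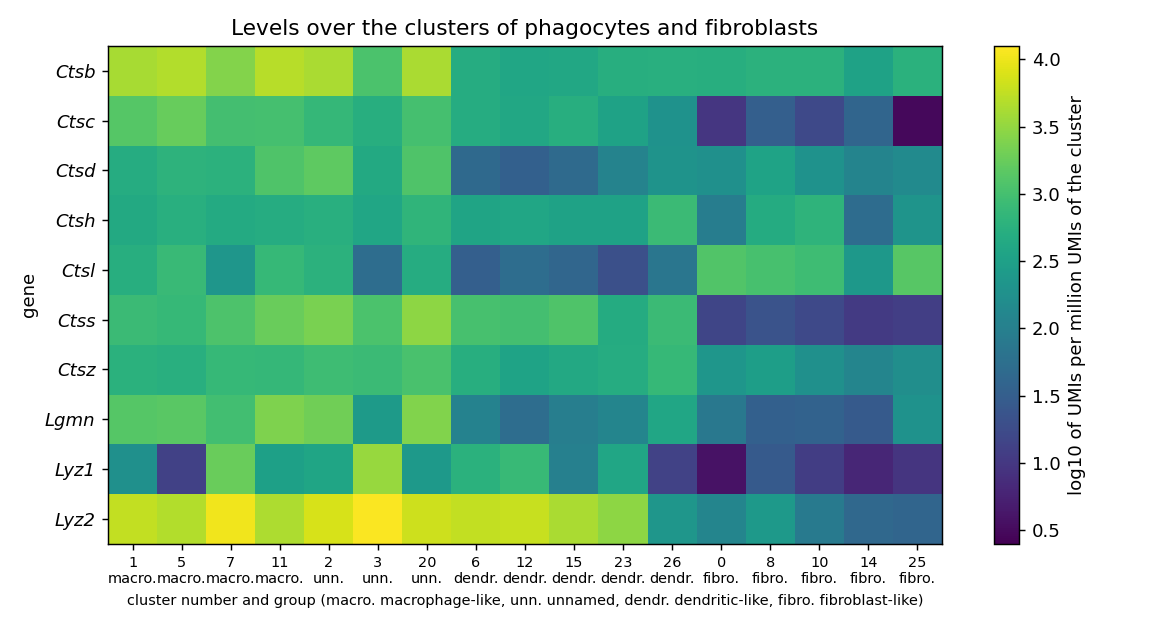
Level of each gene (log10 of CPM, colour) in the 4 macrophage-like, 3 unnamed phagocyte, 5 dendritic-like and 5 fibroblast-like clusters. Lyz1 shows the widest range over the macrophage-like clusters, from 13.0 CPM in cluster 5 to 1804 in cluster 7, and Ctsh the narrowest, from 441 to 551.

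The proteases varied to different degrees within the 4 macrophage-like clusters. The highest cluster exceeded the lowest by 1.25-fold for Ctsh, 1.40-fold for Ctsz, 1.79-fold for Ctsc, 2.00-fold for Ctsb, 2.40-fold for Ctss, 2.44-fold for Ctsd, 2.54-fold for Lgmn and 3.64-fold for Ctsl. Ctsl was lowest in cluster 7, led by the chemokine gene Ccl3 and by Retnla, with 178 and 318 CPM in libraries 1 and 2, and highest in the resident-like cluster 5, led by Ccl8 and Cd209f, with 799 and 886. Cluster 11, resident-like and with Ly6c2 among its leading genes, had the highest Lgmn of the 4 (2675 and 1649.9 CPM in libraries 1 and 2). It also had the highest pooled Ctsb (5125 CPM), but in library 2 alone its 3898 CPM lay below the 4313 of cluster 1 and the 4309.9 of cluster 5. Cluster 7 had the lowest Ctsb and Lgmn (2557 and 956 pooled). The unnamed Ly6c2 clusters 2 and 20 had the highest Ctss of all clusters, at 2290.2 and 2939 CPM, and cluster 2 the highest pooled Ctsd, at 1526. That Ctsd level was 1767 CPM in library 1 and 776 in library 2, where cluster 7 was higher with 846.

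The unnamed cluster 3 combined low levels of some proteases with high lysozyme. Its first marker list was that of macrophages and its next that of type 2 dendritic cells. Among the 4 macrophage-like and the 3 unnamed phagocyte clusters it had the lowest pooled Ctsb, Ctsc, Ctsd, Ctsh, Ctsl and Lgmn. In library 1 its Ctsd was level with that of cluster 1, at 479 CPM each. Its pooled Ctsz, at 836 CPM, was above every macrophage-like cluster (767 at most), but in library 2 alone cluster 7 was higher, with 814 against 806. Its Ctss, at 1144, was above clusters 1 and 5. Its Ctsb (1109 CPM) and Ctsd (447) were above those of every dendritic-like cluster (534 and 201 at most). In cluster 3 Ctsl stood at 51.9 and 54.2 CPM in libraries 1 and 2. Lgmn stood at 271 and 215, against at least 956 CPM in every macrophage-like cluster. Its Lyz2 level was 11823 CPM and its Lyz1 level 3333, the highest of both over all 27 clusters when pooled. In library 2 alone Lyz2 was higher in cluster 7, with 12229 CPM against 10944. Lyz1 is among the 10 genes that lead this cluster, cluster 7 and the dendritic-like cluster 12, although it took no part in the clustering.

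Among the phagocyte clusters, Lyz1 and Lyz2 parted most in the resident-like cluster 5. In cluster 5 Lyz1 had 26 UMIs among 230 cells, 12.2 and 16.4 CPM in libraries 1 and 2, beside a Lyz2 level of 4763 CPM. Lyz1 thus made up 0.271% (0.177 to 0.397, exact Clopper-Pearson) of the lysozyme UMIs there, 3.06% in cluster 1, 6.71% in cluster 11, 14.7% in cluster 7 and 22.0% in cluster 3. Low shares were not particular to resident-like clusters, with 2.37% in the dendritic-like cluster 15, 3.55% in cluster 20 and 4.81% in cluster 2. The Lyz1 level was 1804 CPM (1749 to 1860.2) in cluster 7 and 13.0 (8.46 to 19.0) in cluster 5, close to the 11.8 CPM of fibroblast-like cells, so that no fold is given. The Lyz2 level differed 2.35-fold at most among the 4 macrophage-like clusters. Single cells told the same difference, since 89.6% of the cells of cluster 5 had no Lyz1 UMI, against 39.7% in cluster 7 and 15.2% in cluster 3.

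The higher pooled Lyz1 of library 2 was seen in the macrophage-like clusters 1, 7 and 11, whereas cluster 5 had too few Lyz1 UMIs (20 and 6) to tell its libraries apart. Library 1 had 112 and library 2 had 393 CPM in cluster 1, 268 and 484 in cluster 11, and 1413 and 2602 in cluster 7. In the unnamed clusters 2 and 20 it was 246 and 787, and 144 and 959 CPM (7 cells of library 2 in cluster 20). Cluster 3 went the other way, with 3469 in library 1 and 2737 in library 2. Age, animals and library cannot be told apart here.

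**Figure D4:**
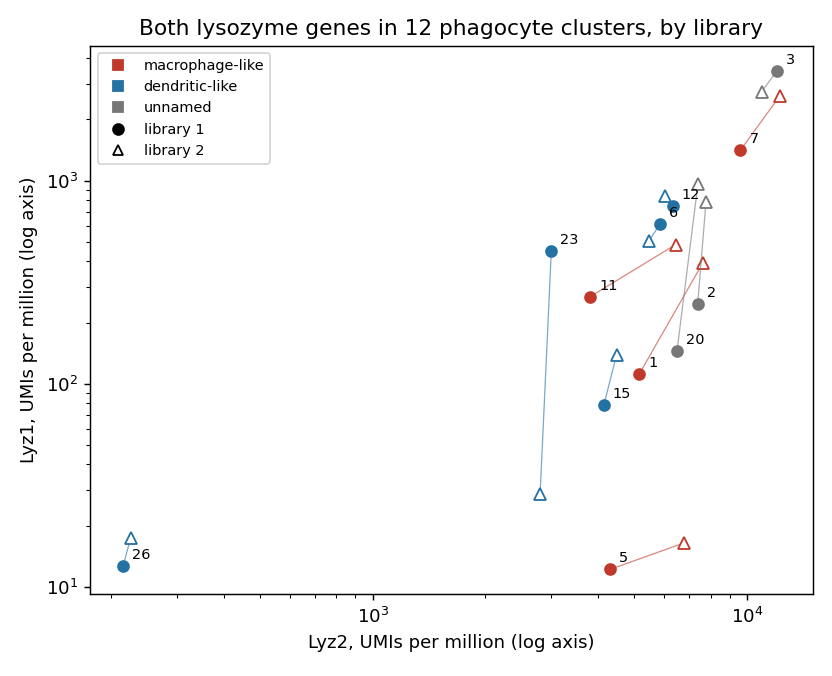
Lyz1 against Lyz2 (CPM, log axes) in the 12 phagocyte clusters, with library 1 as circles carrying the cluster number and library 2 as triangles. Cluster 5 lies at 4315 and 6771 CPM of Lyz2 in its libraries but at 12.2 and 16.4 of Lyz1, and cluster 3 lies highest in library 1 for both genes.

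The dendritic-like clusters also differed in lysozyme. Lyz2 was 5761 and 6214 CPM in the Cd209a clusters 6 and 12, 4292 in cluster 15, 2974 in cluster 23, which was led by cycling genes such as Top2a, and 218 in cluster 26 of 21 mature dendritic-like cells. That mature cluster had 4 Lyz1 UMIs, the lowest Ctsc of these clusters at 190.4 CPM, and the highest pooled Ctsh of all clusters at 847 CPM (922 and 539 in libraries 1 and 2, with 5 cells in library 2, where cluster 20 was higher with 770.4). Its Lgmn level was 391 CPM and its Ctsd level 201, the highest of the dendritic-like clusters, but library 2 had 86.9 and 17.4 CPM.

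In fibroblast-like cells the pooled value of Ctsh hid a split between clusters. Ctsh stood at 632 CPM in cluster 10, led by collagen genes, and 476 in cluster 8, but at 205 in cluster 25, 93.3 in cluster 0 and 51.7 in cluster 14, a 12.2-fold range. Cluster 10 was almost wholly of library 1, with 143 of 145 cells, and cluster 8 mostly of library 2, with 173 of 187 cells, so that each may stand for a library. Ctsl was lowest in cluster 14, led by Igfbp3 and Prlr, at 233 CPM, and lay between 899.9 and 1361 CPM in the other 4.

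Levels of the 10 genes were correlated on the log2 scale over the 27 clusters, with 10 CPM added. Clusters share libraries and differ in depth, and values are descriptive. Ctss, Ctsc and Lyz2 went together, with Pearson r of 0.92 for Ctsc and Ctss, 0.92 for Ctss and Lyz2 and 0.90 for Ctsc and Lyz2. Ctsb and Lgmn had r of 0.91. Ctsl was the least like the rest, with r of -0.23 with Ctss and with Lyz1, and its highest r was 0.48 with Ctsd. Among 7576 genes, those most like each gene were Grn and Tmem106a for Ctsb (r of 0.96 and 0.95), Adgre1 and Nrros for Ctsc (0.97 and 0.96), Tyrobp and Fcer1g for Ctss (0.98 each) and Alox5ap and Fcgr2b for Lyz2 (0.96 and 0.95). They were Npc2 for Ctsh (0.94), Ap2b1 and Sirpa for Ctsz (0.91 each), Ms4a7 and Lst1 for Lgmn (0.92 and 0.90), Ear2 and Slamf8 for Lyz1 (0.91 and 0.90), Pld3 and Dhrs3 for Ctsd (0.89 and 0.86) and Tm9sf2 and Sash1 for Ctsl (0.87 and 0.86).

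Another 70 genes of the lysosome were taken as a fixed list, of other cathepsins, cysteine protease inhibitors, hydrolases, membrane proteins, proton pump subunits, sorting receptors, transcription factors and MHC class II partners. In macrophage-like against fibroblast-like cells, 25 of the 58 tested were called higher and 3 lower, with a median log2 ratio of 1.25, where 13.5% and 20.9% of all genes tested were called. The largest ratios were those of Cd68, a lysosomal membrane protein of macrophages (6.41, 6.10 to 6.73), Laptm5 (6.35) and Cd74, the invariant chain (5.77). The 3 lower were Ctsk (-6.07), the mannose 6-phosphate receptor gene Igf2r (-2.55) and Laptm4a (-1.66).

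In macrophage-like against dendritic-like cells, 23 of 52 were called higher and 5 lower, with a median of 1.07, where 11.9% and 5.32% of all genes were called. The phospholipase gene Pla2g15 (3.98), the tetraspanin gene Cd63 (2.99) and the acid phosphatase gene Acp2 (2.86) had the largest ratios, and Gm2a (-2.04) and Arsb (-1.90), which act on glycolipids and glycans, were among the lowest. Cd74 and Ifi30 were also among the 5 lower. In dendritic-like against fibroblast-like cells, 17 of 57 were called higher and 9 lower, with a median of 0.47, where 10.9% and 25.0% of all genes were called. Cd74 (6.87), H2-DMa, which loads peptide on MHC class II (6.44), and Laptm5 (6.05) led, and Ctsk (-7.39), Ctsf (-4.42) and Igf2r (-4.14) were lowest.

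Among the other cathepsins, Ctsk, known for its cleavage of collagen, was the fibroblast gene, with 1477 CPM in fibroblast-like, 22.0 in macrophage-like and 8.79 in dendritic-like cells. Ctsa, which protects lysosomal glycosidases, had 405 CPM in macrophage-like, 139.6 in dendritic-like and 65.8 in fibroblast-like cells, and was called higher in macrophage-like cells against both. Ctsf stood at 43.4 CPM in fibroblast-like, 21.1 in macrophage-like and 2.03 in dendritic-like cells, and Ctso at 31.3, 31.2 and 14.1. Ctsw, a gene of cytotoxic lymphocytes, had 0 UMIs in macrophage-like and fibroblast-like cells, which allows up to 0.317 and 0.222 CPM, and 4 in dendritic-like cells. Ctse and Ctsg had 16 and 18 UMIs in all cells together.

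Of the inhibitors, cystatin C, a secreted blocker of cysteine cathepsins encoded by Cst3, was highest in dendritic-like cells with 4516 CPM, against 2828 in macrophage-like and 1094 in fibroblast-like cells. Only dendritic-like against fibroblast-like cells passed the call for Cst3 (log2 ratio 2.05, 2.02 to 2.07). Stefin B, the inhibitor of the cytosol encoded by Cstb, had 1005.7 CPM in macrophage-like, 341 in dendritic-like and 246 in fibroblast-like cells, and was called higher in macrophage-like cells against both. Cst6, Cst7 and Stfa1 had 6 or fewer, 15 or fewer and 0 UMIs in each of the 3 groups.

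The transcription factors TFEB, TFE3 and MITF bind the motif CACGTG, with TCACGTGA as a preferred longer form, in promoters of many lysosomal genes. RefSeq windows from 250 bases before to 50 after the start were at hand for 8 of the 10 genes (9 windows, Ctsb and Ctsh without one). Read on both strands, CACGTG occurred in 3 of the 9 windows, of Ctsd, Ctsl and Lgmn, and in 7.15% of 32851 windows of all genes. In Ctsd it lay 245 and 98 bases before the start, in Ctsl 236 bases and at the second start of Lgmn 49 bases before it. TCACGTGA, which contains CACGTG, occurred in the Ctsd window only among these, and in 0.974% of all windows. The Ctsd promoter is shown because it holds both, with CACGTG in capitals.
Ctsd, chr7:142387828-142388077, minus strand: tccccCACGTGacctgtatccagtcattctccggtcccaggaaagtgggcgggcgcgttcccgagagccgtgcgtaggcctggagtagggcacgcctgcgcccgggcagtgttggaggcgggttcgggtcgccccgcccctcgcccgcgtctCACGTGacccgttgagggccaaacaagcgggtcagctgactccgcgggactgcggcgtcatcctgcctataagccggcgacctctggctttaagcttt

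A match is a description of the letters and not a site of binding. Among the factors themselves, Mitf was called lower in dendritic-like cells than in both other groups. Mitf stood at 31.8 CPM in macrophage-like, 6.90 in dendritic-like and 39.9 in fibroblast-like cells, Tfe3 at 80.3, 56.1 and 63.3, and Tfeb at 12.5, 9.19 and 6.60.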

How the data were processed

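Single cells of 2 libraries, 1 per age, were measured by droplet RNA sequencing with 3′ v3.1 chemistry. The authors counted UMIs with Cell Ranger 4.0.0 on mm10, per the submitters' processing notes, and deposited whole-number counts of both libraries in 1 matrix without normalization. No filter on barcodes before deposit is stated. The libraries held 35821853 and 20382748 UMIs. Barcodes were kept with 500 genes or more, 1000 UMIs or more and at most 10% mitochondrial UMIs (Python 3.11.15, scanpy 1.11.5, numpy 2.4.6, scipy 1.17.1). Clusters came from 2000 variable genes, without the 10 genes and the lysosomal list, 30 principal components, 15 neighbours and Leiden resolution 1 (leidenalg 0.10.2, igraph 0.11.9, seed 1). A cluster was named where the mean log2 excess of a marker list over the median cluster (10 CPM added) led the next group's list by 0.5, with at least 3 of its markers at 20 CPM and raised 2-fold over the median cluster. That lead was chosen after the clusters had been seen, and names end in like because they are rebuilt. No doublet caller was run, and cells with markers of another group were removed as an alternative.

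UMIs were summed per group and divided by the group's total. Ratios were called at 2-fold in the pooled cells and in each library, among genes with 50 UMIs or more over both groups in each library, and the procedure was tested on simulated data. Exact 95% Poisson, conditional binomial and Clopper-Pearson intervals and the limit of 3 counts for a count of 0 cover counting error only. Ages were not compared, although this had been planned. The 10 genes and all lists were chosen with earlier results of these data known. Text names all 10 genes, the 3 highest and 3 lowest ratios of the lysosomal list per comparison, its other cathepsins and inhibitors with 50 UMIs or more, and the 2 genes most like each of the 10. Some genes that this rule takes are not reported here. Other lysosomal genes named beside these were chosen after their values were seen. Alternatives changed the cell filter, clustering, naming, grouping, mixed cells, library, weighting, scaling and gene filter. Protein sequences were not used here.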

Additional observations from a re-analysis of the deposited data

Results flagged for a closer look

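The log2 ratio of Lyz1 between macrophage-like and dendritic-like cells was -0.28 in library 1 and 1.25 in library 2. It was singled out because the libraries, of unknown age, moved opposite ways, and the difference between them was not tested.

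The 1460 barcodes outside the cell filter, which no comparison used, held 13021 UMIs of the 10 genes, 0.241% (0.237 to 0.245, exact Clopper-Pearson) of their UMIs. In the kept cells the share was 0.901%. This signal was singled out as lying in data outside the main measurement and above the limit that a count of 0 allows.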

How the results depend on the processing

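No paired analysis was possible because the barcode suffixes carry no replicate number and each age has 1 library. Over 15 alternatives, 2 of them on naming and chosen after seeing the data, 168 of 180 counts of called genes stayed within 1.5 times the main count. The 8 genes called higher in macrophage-like than fibroblast-like cells were called in all 15. For macrophage-like against fibroblast-like cells, 1 of the 10 genes (Ctsl) was called lower with the looser cell filter (200 genes, 500 UMIs, 20% mitochondrial) and at Leiden resolution 0.5. Of the lysosomal list, 39 were higher in library 1 alone (25 main), where 19.0% of all genes tested were called higher (13.5% main). The number lower in this comparison was 3 in the main setting, where 20.9% of all genes tested were called lower. It was 6 with the looser filter, at resolution 0.5 and with 3000 variable genes. It was 5 with the stricter filter (1000 genes, 2000 UMIs, 5% mitochondrial), with cells gated singly and with cells weighted equally. In these settings 20.4% to 22.2% of all genes tested were called lower. In library 2 alone the number was 8, beside 26.9% of all genes tested. With a single library, a call did not need the other library to pass. For macrophage-like against dendritic-like cells 3 were lower with the stricter filter (5 main), where 3.28% of all genes tested were called lower (5.32% main). For dendritic-like against fibroblast-like cells 17 were lower in library 2 alone (9 main), where 33.2% of all genes tested were called lower (25.0% main).

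Lyz1 between macrophage-like and dendritic-like cells had log2 ratios from -0.28 in library 1 alone to 1.81 with the looser filter, and was called higher in 6 of 15 alternatives. Lgmn between dendritic-like and fibroblast-like cells was called in 5 of 15, and Ctsc between macrophage-like and dendritic-like cells in 13. Signs also changed for Ctss between the phagocyte groups (to -0.04 at resolution 0.5) and for Ctsb between dendritic-like and fibroblast-like cells (-0.16, to 0.01 in library 1 alone and with the stricter filter). The cause of these changes was not tested. A total without mitochondrial and ribosomal genes moved the median of all genes from 0.13 to 0.02 for macrophage-like against dendritic-like and from -0.32 to -0.19 for dendritic-like against fibroblast-like cells, and with no minimum of UMIs 40.8% of calls of the latter were higher (30.3% main). Thinning to 1000 UMIs lowered the shares of all 10 genes in macrophage-like, dendritic-like and fibroblast-like cells. Depth limits the clusters of few cells most, where a level of 3 UMIs is 10.2 CPM in the mature dendritic-like cluster.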

Other observations

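Pooled lysozyme levels differed between the 3 endothelial-like clusters, but few endothelial-like cells carried Lyz1. Of all 351 cells, 6.55% had a Lyz1 UMI and 31.1% a Lyz2 UMI. After thinning, 2.46% and 13.2% of 325 cells did. Cluster 4, led by Fabp4 and Aqp1, had 1265.5 CPM of Lyz2 and 332 of Lyz1, with 520 and 121 CPM of Lyz1 in libraries 1 and 2. Cluster 18, led by Ccl21a and Mmrn1, had 209.9 CPM of Lyz2 and 5 UMIs of Lyz1. Cluster 21, led by Selp, had 19.1 CPM of Lyz2 and no Lyz1 UMI, which allows up to 2.86 CPM. Ctss followed the same order, with 158 CPM in cluster 4, 21.4 in cluster 18 and 5.73 in cluster 21. Over all endothelial-like cells the macrophage markers had a median of 4.32% of their macrophage-like level, and their part in these values was not tested.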
